A study of Rattus norvegicus with 16 samples.

Results

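Genes whose annotated symbol starts with Cacn or Scn were followed in cultured primary rat pancreatic islets. Most of them encode subunits of the voltage-gated calcium and sodium channels. The rule found 40 genes among the 14217 genes tested, each read from the probe set of highest mean where a gene had several, as 13 of the 40 did. Of them 24 are named as calcium channel subunits and 12 encode sodium channel subunits of the voltage-gated family. The 24 include 8 genes of the gamma family, several of which encode proteins that carry AMPA receptors in brain. The remaining 4 of the 40 carry the letters Scn without being voltage-gated channels. Scnn1a, Scnn1b and Scnn1g encode the epithelial sodium channel, and Scnm1 encodes a splicing factor.

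The islets came from male Wistar rats aged 8 weeks and were measured on 1-colour expression arrays 48 h after the virus was added, in medium with 8 mM glucose and 10% serum. They had been given AdNkx6.1, an adenovirus expressing the beta cell transcription factor Nkx6.1 (5 arrays), or Adβgal, an adenovirus expressing β-galactosidase that served as the control virus (6 arrays), or had been left untreated (5 arrays). Virus was present for 18 h. Titles call the arrays biological replicates but do not name animals or cultures, so p-values measure the spread between these arrays. Neither the share of infected cells nor the level of the delivered proteins was compared between the viruses, so a difference in infection between the viruses and an effect of the gene they carry cannot be told apart.

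Voltage-gated calcium channels open when the beta cell membrane depolarizes and let in the calcium that triggers insulin release. Each has a pore subunit, which sets the current type. Those of the high-voltage class also have an intracellular beta subunit and an extracellular alpha2delta subunit that bring the pore to the membrane. Voltage-gated sodium channels, a pore with small beta subunits, carry the fast upstroke of the action potential, and islet endocrine cells other than beta cells use them too.

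The markers of the labelled tissue were present: the insulin gene Ins2 lay between 14.61 and 14.91 on the log2 intensity scale over the 16 arrays, and the glucagon gene Gcg lay between 14.43 and 14.82. Exocrine RNA was present as well, with the acinar gene Cpa1 ranging from 8.92 to 13.06. Of 11 acinar markers 3 were lower (8.48% of all genes) with AdNkx6.1 than with Adβgal. Their mean, each centred over the arrays, was highest on Adβgal replicates 4, 5 and 6, at 1.85, 1.17 and 1.27. Some markers of other cell types were highest on these arrays too. Cnn1 of smooth muscle read 7.28, 8.91 and 7.09 there, against at most 5.97 on the other arrays. Cd3e of leukocytes read 5.56, 6.11 and 5.02, against at most 4.13. Not all markers of such cell types followed. Itgam of leukocytes read 5.26, 4.66 and 5.52 on replicates 4, 5 and 6, and Col1a2 of fibroblasts 13.35, 13.15 and 13.55. On other arrays these markers reached 6.16 and 13.74. The acinar means spanned -1.32 to 0.28 on AdNkx6.1 arrays, -1.04 to 1.85 on Adβgal arrays and -0.65 to 0.21 on untreated arrays. The Nkx6-1 probe set was lower with AdNkx6.1 (11.43 ± 0.17, n = 5) than with Adβgal (11.9 ± 0.19, n = 6), and whether it lies within the delivered sequence was not tested, so it does not check the labels. No detection call was used, and 31 of the 40 genes had a mean below 9.86, the median of the mean log2 values of all tested genes, so that folds from low values are not exact. In bulk RNA, fewer cells of a type and less RNA per cell cannot be told apart.

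Between AdNkx6.1 and Adβgal islets, which differ in the delivered gene, 13 of the 40 genes changed at a limma adjusted p under 0.05, against a background of 25.0% of all genes. The share among the channel genes was 32.5%. Higher were 6 (Scn4b, Cacna2d3, Scnn1a, Cacna1h, Cacnb1 and Cacnb3), where 16.6% of all genes were higher. Lower were 7 (Scn9a, Scn7a, Scn1a, Scn2a, Cacng4, Cacna1d and Cacnb2), where 8.48% of all genes were lower. The arrays of the groups did not overlap for 9 of the 40 (14.2% of all genes), with AdNkx6.1 above in 5 (10.4% of all genes) and below in 4 (3.78% of all genes). The median log2 change of the 40 was -0.08, beside 0.02 over all genes tested. Of the 31 genes below the median level 10 changed (32.3%, where 23.2% of such genes changed), and of the 9 genes above it 3 changed (33.3%, where 26.9% changed).

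**Figure D1:**
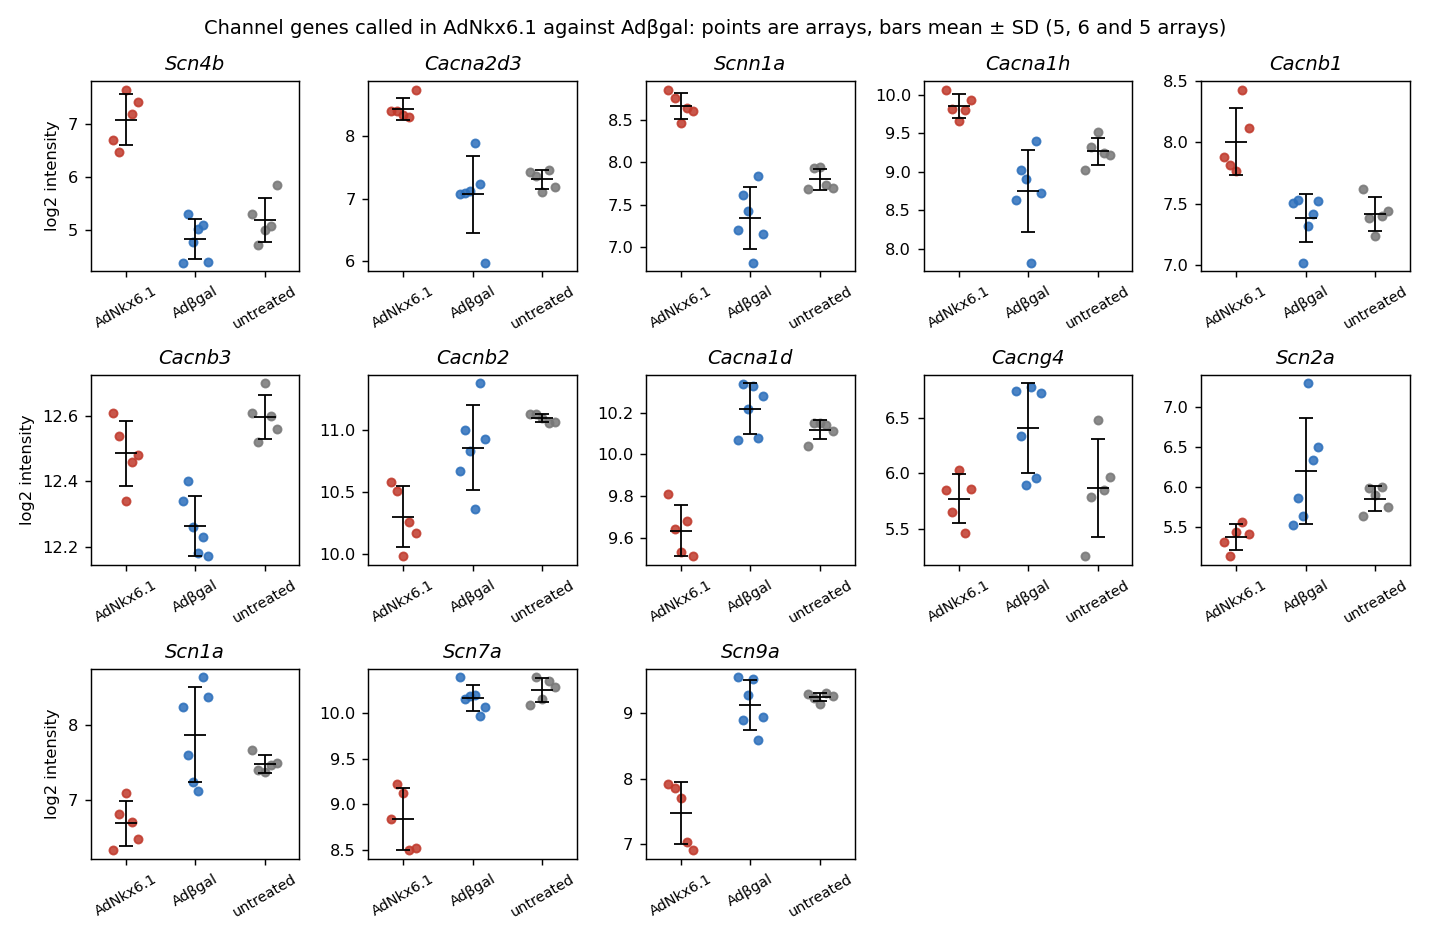
Log2 intensity on each array (points) with mean ± SD (bars) of the 13 channel genes that changed between AdNkx6.1 (5 arrays, red) and Adβgal (6 arrays, blue), with untreated islets (5 arrays, grey) beside them. For Scn9a every AdNkx6.1 array, at most 7.91, lies below every Adβgal array, at least 8.58, and for Scn4b every AdNkx6.1 array, at least 6.48, lies above every Adβgal array, at most 5.31.

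Sodium channel pore genes held the largest falls. Of 9 measured, 4 fell with AdNkx6.1 against Adβgal (8.48% of all genes) and 0 rose (16.6% of all genes). The median log2 change of the 9 was -0.29. At an unadjusted p under 0.05 limma gave 5 of 9 lower (13.9% of all genes) and 0 higher (22.4% of all genes). Scn9a, whose channel in sensory neurons sets pain thresholds and which is also one of the main sodium channels of mouse beta cells, read 7.91, 7.85, 7.70, 7.03 and 6.91 with AdNkx6.1. With Adβgal its lowest, median and highest values were 8.58, 9.1 and 9.54, and the untreated arrays read 9.29, 9.23, 9.14, 9.30 and 9.26. The AdNkx6.1 arrays lay below all others, replicates 4 and 5 lowest. The fall from Adβgal was 3.13-fold (log2 change -1.64 ± 0.2, SE; limma adjusted p = 1.8e-05).

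Scn7a encodes an atypical member that senses extracellular sodium, best known from glia, rather than opening on depolarization. It read 8.84, 9.22, 9.13, 8.50 and 8.52 with AdNkx6.1, against a lowest, median and highest of 9.97, 10.16 and 10.39 with Adβgal and values of 10.09, 10.39, 10.15, 10.35 and 10.28 untreated. No AdNkx6.1 array reached the lowest array of either other group. The log2 change from Adβgal was -1.32 ± 0.13, a 2.49-fold fall (limma adjusted p = 1.5e-06). Of 7 measured markers of Schwann cells and neurons 2 were higher (16.6% of all genes) and 1 lower (8.48% of all genes) in the same comparison. Their centred mean overlapped between the groups, at -0.33 to 0.14 with AdNkx6.1 and -0.42 to 0.07 with Adβgal. None of these markers is at 0 on this scale, and the glial marker Sox10 ranged from 5.55 to 7.03.

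Scn1a, a sodium channel of inhibitory neurons, read 6.34, 6.82, 7.10, 6.72 and 6.49 with AdNkx6.1. Its lowest, median and highest values were 7.12, 7.92 and 8.63 with Adβgal, and the untreated arrays read 7.67, 7.40, 7.37, 7.47 and 7.50. The groups did not overlap, though the highest AdNkx6.1 array and the lowest Adβgal array nearly met. The change was -1.17 ± 0.24, a 2.25-fold fall with a limma adjusted p = 0.0017. Scn2a, a channel of excitatory neurons, read 5.31, 5.13, 5.44, 5.56 and 5.41 with AdNkx6.1, and from 5.52 over 6.1 to 7.29 with Adβgal. These groups overlapped. The highest Adβgal values, 7.29, 6.34 and 6.50, came from replicates 4, 5 and 6. Those arrays were highest in the acinar marker mean, and also in Cnn1 of smooth muscle and Cd3e of leukocytes. Other markers of such cell types, among them Itgam of leukocytes, were not highest there. The change of Scn2a was -0.82 ± 0.24 (limma adjusted p = 0.019). Without those 3 arrays it was -0.3 with an adjusted p = 0.063, so this call rested on them.

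The other pore genes did not pass this test. Scn3a, the other main sodium channel of mouse beta cells, differed by -0.29 ± 0.11 (95% interval -0.53 to -0.06, limma adjusted p = 0.066). Without Adβgal replicate 4, its lowest Adβgal array at 10.60, the adjusted p was 0.0086. Scn8a, Scn4a (the skeletal muscle channel), Scn10a and Scn11a (channels of sensory neurons) differed by 0.03 to 0.12, each with overlapping groups. Their means over all arrays were low, at 5.385, 4.262, 5.283 and 4.805 in this order, so a fall would be hard to see.

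The sodium channel pore genes that fell lie near each other. In the RefSeq annotation of the rat, Scn3a, Scn2a, Scn1a, Scn9a and Scn7a stand in this order in a cluster on chromosome 3, with 4 other protein-coding genes between Scn2a and Scn1a. Of those, Csrnp3, a nuclear protein gene, differed by 0.13 ± 0.1 (limma adjusted p = 0.36) and Galnt3, a glycosylation enzyme gene, by -0.02 ± 0.23 (adjusted p = 0.96). The other two were not analysed here. Neither measured gene inside the cluster passed the test, which 25.0% of all genes passed. Of the 5 channel genes 4 were lower, where 8.48% of all genes were. The call of Scn2a among them rested on Adβgal replicates 4, 5 and 6. Cluster neighbours share position and related sequence and are not independent of each other; how far their probes can bind each other's transcripts was not tested. Scn10a and Scn11a, which lie on chromosome 8 with 1 gene between them, did not pass. Like the other pore genes outside the cluster they read at low intensities, so whether the fall is particular to the cluster cannot be told.

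**Figure D2:**
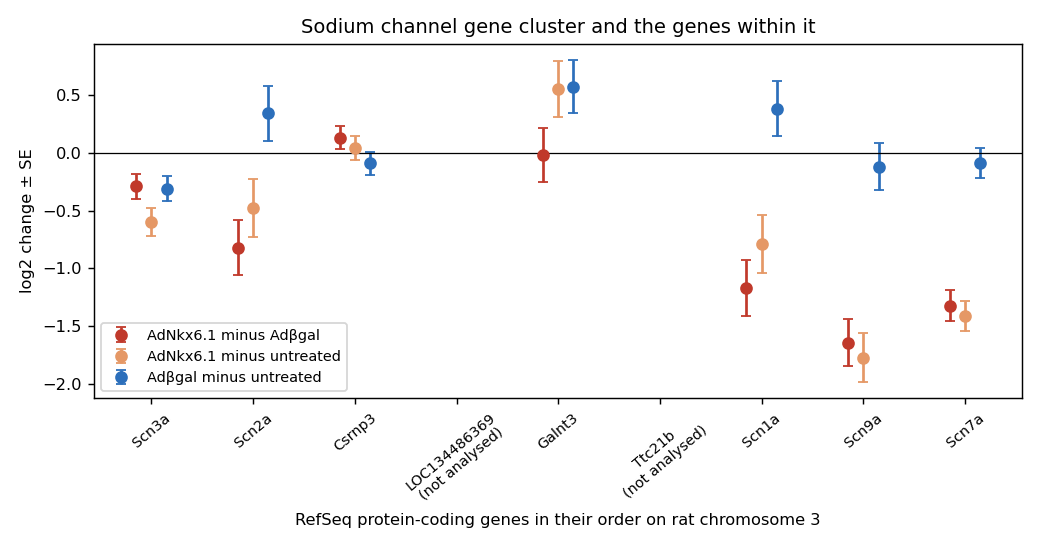
Log2 change ± SE (vertical axis) of the genes of the sodium channel cluster in their order along rat chromosome 3, without scale, for AdNkx6.1 minus Adβgal (red), AdNkx6.1 minus untreated (orange) and Adβgal minus untreated (blue). The channel genes have values from -0.29 to -1.64 in AdNkx6.1 minus Adβgal, and the genes inside the cluster, Csrnp3 and Galnt3, lie near 0 there.

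The promoters of the genes with the 2 largest falls and the largest rise are printed to show what the start regions hold. They are RefSeq windows of 300 bases at a gene start on build GRCr8, lying mostly upstream of the annotated gene for Scn9a and Scn4b and mostly inside it for Scn7a, written 5′ to 3′ on the gene's own strand: Scn9a at chr3:71701328-71701627 (minus strand), Scn7a at chr3:71846235-71846534 (minus strand) and Scn4b at chr8:54343623-54343922 (plus strand). Capitals would mark a motif match, and there was none.
Scn9a: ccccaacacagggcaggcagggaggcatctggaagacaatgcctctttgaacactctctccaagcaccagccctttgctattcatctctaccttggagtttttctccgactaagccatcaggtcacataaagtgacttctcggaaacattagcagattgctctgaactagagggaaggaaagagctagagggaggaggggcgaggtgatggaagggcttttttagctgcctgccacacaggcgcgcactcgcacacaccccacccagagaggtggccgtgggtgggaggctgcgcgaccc
Scn7a: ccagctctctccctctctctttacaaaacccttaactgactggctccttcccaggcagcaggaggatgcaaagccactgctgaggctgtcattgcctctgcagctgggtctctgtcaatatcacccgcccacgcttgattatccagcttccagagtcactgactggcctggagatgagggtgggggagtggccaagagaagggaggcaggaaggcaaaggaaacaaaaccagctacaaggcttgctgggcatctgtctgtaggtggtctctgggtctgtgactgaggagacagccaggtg
Scn4b: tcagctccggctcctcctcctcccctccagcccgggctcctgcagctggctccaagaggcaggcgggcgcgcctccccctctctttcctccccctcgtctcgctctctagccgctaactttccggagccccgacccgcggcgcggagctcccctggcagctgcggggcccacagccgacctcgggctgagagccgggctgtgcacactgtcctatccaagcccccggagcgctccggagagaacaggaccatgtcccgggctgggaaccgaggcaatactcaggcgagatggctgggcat

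The motifs searched on both strands were TAATTA, the core that Nkx6.1 and many other homeodomain proteins bind, AAAGGTCA, the site NR4A receptors bind as monomers, and TTCAGCACC, the first part of the site of the neuronal repressor REST. Of 33469 promoters of this length in the table, 5.36%, 1.43% and 0.356% held them in this order. Of the 31 channel genes with a promoter there, 0 held TAATTA, 0 held AAAGGTCA and 1, that of Cacng3, held TTCAGCACC. A missing match says only that these letters are not in the window. The GC content was 56% for Scn9a and Scn7a and 70% for Scn4b.

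Sodium channel beta subunits are small membrane proteins that adjust gating and surface level of the pore. Only 1 of the 3 measured, Scn4b, changed, where 25.0% of all genes did. Scn4b, whose subunit shapes the resurgent sodium current of mouse cerebellar neurons, read 6.70, 6.48, 7.65, 7.19 and 7.41 with AdNkx6.1. Its lowest, median and highest values were 4.39, 4.9 and 5.31 with Adβgal, and the untreated arrays read 5.31, 4.72, 5.01, 5.08 and 5.85. Every AdNkx6.1 array stood above every other array. The rise over Adβgal was 4.77-fold, or 2.25 ± 0.24 in log2 units (limma adjusted p = 4e-06), and was the largest change of any of the 40 genes; its fold is measured from a low intensity.

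Scn2b lies next to Scn4b on chromosome 8 and did not pass the test, at -0.18 ± 0.11 (95% interval -0.42 to 0.05). Scn3b differed by -0.09 ± 0.19 (limma adjusted p = 0.78). Adβgal replicate 5 stood alone for Scn3b at 10.02, where the other Adβgal arrays lay between 11.22 and 11.56. Without that array Scn3b passed at an adjusted p = 0.0051, lower with AdNkx6.1, and its second probe set gave -0.23 ± 0.09 over all arrays (adjusted p = 0.069).

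Among the calcium channel pores of the high-voltage class, Cacna1d alone of 7 changed with AdNkx6.1 against Adβgal, where 25.0% of all genes did. It encodes an L-type pore that opens at lower voltages than the L-type pore of Cacna1c, and both carry calcium into beta cells. Cacna1d read 9.81, 9.64, 9.53, 9.68 and 9.51 with AdNkx6.1, against 10.07, 10.25 and 10.34 as lowest, median and highest with Adβgal and 10.04, 10.15, 10.15, 10.14 and 10.11 untreated. The AdNkx6.1 arrays were the lowest throughout. The 1.5-fold fall (log2 change -0.59 ± 0.07) had a limma adjusted p = 1.8e-05. A second probe set of Cacna1d gave -0.42 ± 0.12 (adjusted p = 0.023 over all probe sets), and the third, with a mean of 4.72, gave -0.1 ± 0.16 (adjusted p = 0.7).

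The remaining high-voltage pores did not pass against Adβgal over all arrays at the main settings. Cacna1c had a change of -0.05 ± 0.07, with a 95% interval of -0.19 to 0.09. Cacna1a, the P/Q-type pore that serves exocytosis in rat beta cells, had -0.06 ± 0.14, Cacna1b (N-type) -0.28 ± 0.25, and Cacna1e (R-type) -0.22 ± 0.11 with an interval of -0.45 to 0.02. Cacna1f of the retina and Cacna1s of skeletal muscle had -0.03 and -0.09. Means over all arrays were low for Cacna1e, Cacna1f and Cacna1s, at 4.638, 4.98 and 4.738 in this order, so a change would be hard to see. Groups overlapped in each of the 6 remaining pore genes. With array weights Cacna1b passed as lower than with Adβgal (-0.56, limma adjusted p = 0.031). Against untreated, Cacna1a and Cacna1e did not pass at the main settings. They passed there as lower with array weights (0.0021 and 0.012) and without Adβgal replicates 4, 5 and 6 (0.016 and 0.034).

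T-type pores open at small depolarizations. Cacna1h read 10.07, 9.82, 9.66, 9.81 and 9.94 with AdNkx6.1, and from 7.82 over 8.82 to 9.4 with Adβgal, beside 9.03, 9.33, 9.52, 9.24 and 9.22 untreated. All AdNkx6.1 arrays lay above all arrays of both other groups. The rise over Adβgal was 2.15-fold (log2 change 1.11 ± 0.2, limma adjusted p = 0.00063). Its second probe set, with a mean of only 4.88, gave -0.04 ± 0.14. The other T-type pore genes, Cacna1g and Cacna1i, each had a change of -0.15 and did not pass.

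Of the alpha2delta subunits, Cacna2d3 rose with AdNkx6.1. It read 8.41, 8.41, 8.34, 8.31 and 8.75 there, against a lowest, median and highest of 5.97, 7.11 and 7.9 with Adβgal and 7.43, 7.36, 7.11, 7.46 and 7.19 untreated. The groups did not overlap, although Adβgal replicates 4 and 6 spread from 7.90 to 5.97. The rise was 2.59-fold (1.37 ± 0.23, limma adjusted p = 0.00031). Cacna2d1, the subunit that binds gabapentin, did not pass, at -0.14 ± 0.24 with an interval of -0.65 to 0.36. Its Adβgal values ranged from 11.53 to 13.29, with replicate 5 lowest, and without Adβgal replicates 4, 5 and 6 it was lower by -0.57 (adjusted p = 0.0054). Cacna2d3 and Cacna1d lie near each other on chromosome 16 with 5 genes between them and moved in opposite directions. Of the 3 measured genes between them, Chdh, a choline dehydrogenase gene next to Cacna1d, rose by 0.9 ± 0.13 (adjusted p = 6.6e-05), and Selenok and Actr8 differed by 0.1 ± 0.06 and 0.04 ± 0.09 and did not pass.

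The beta subunits of calcium channels changed in 3 of 4 cases and in both directions, where 25.0% of all genes changed. Cacnb1, the subunit of the skeletal muscle channel, read 7.88, 7.82, 7.77, 8.43 and 8.12 with AdNkx6.1, and from 7.02 over 7.46 to 7.53 with Adβgal, beside 7.62, 7.38, 7.24, 7.40 and 7.44 untreated. It was above every Adβgal array on each AdNkx6.1 array. The rise was 1.53-fold (0.62 ± 0.12, limma adjusted p = 0.0014), while its second probe set gave -0.03 ± 0.16.

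Cacnb2, a partner of the cardiac L-type pore, read 10.58, 10.51, 9.98, 10.26 and 10.17 with AdNkx6.1. With Adβgal it spanned 10.36, 10.88 and 11.38 as lowest, median and highest, and untreated arrays held 11.13, 11.13, 11.10, 11.06 and 11.07. AdNkx6.1 and Adβgal arrays overlapped, and the fall was 1.48-fold (-0.56 ± 0.14, limma adjusted p = 0.0089). A second probe set gave -0.57 ± 0.13 (adjusted p = 0.0055), and the third gave -0.36 ± 0.23 (0.29).

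Cacnb3, which in mouse islets restrains calcium release from stores, read 12.61, 12.54, 12.34, 12.46 and 12.48 with AdNkx6.1. Its Adβgal values were 12.17, 12.25 and 12.4 as lowest, median and highest, and the untreated ones 12.61, 12.52, 12.70, 12.60 and 12.56. The groups overlapped. It was 1.17-fold higher with AdNkx6.1 than with Adβgal (0.22 ± 0.06, limma adjusted p = 0.018). Against untreated it differed the other way, by -0.11 ± 0.07, and did not pass (adjusted p = 0.24), and Adβgal was itself lower than untreated (-0.33 ± 0.06). The call was lost without AdNkx6.1 replicate 1 (adjusted p = 0.054) and without Adβgal replicates 4, 5 and 6 together (0.15, adjusted p = 0.12).

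The gamma family holds a muscle channel subunit, Cacng1, and proteins that in brain carry AMPA receptors to the synapse. Of 8 measured, Cacng4 alone changed, where 25.0% of all genes did. It read 5.85, 5.65, 6.03, 5.46 and 5.86 with AdNkx6.1, against 5.89, 6.53 and 6.78 as lowest, median and highest with Adβgal, with overlap of the groups; untreated arrays ran from 5.25 to 6.48. Its log2 change from Adβgal was -0.63 ± 0.21 (limma adjusted p = 0.034). Against untreated it differed by -0.1 ± 0.22 and did not pass (0.77). Adβgal itself differed from untreated by 0.53 ± 0.21, which did not pass either (0.12). The call was lost when any one of AdNkx6.1 replicates 1, 2, 4 and 5 or Adβgal replicates 1, 4 and 6 was left out, at adjusted p-values of 0.052 to 0.094, without Adβgal replicates 4, 5 and 6 (-0.55, adjusted p = 0.1) and with array weights (-0.51, adjusted p = 0.064). The other 7 differed between AdNkx6.1 and Adβgal by -0.31 (Cacng2) to 0.13 (Cacng1) with overlapping groups. Means of the 8 over all arrays were low, from 3.702 (Cacng3) to 6.194 (Cacng2), so a change would be hard to see.

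Of the genes that only share the letters of the symbol, Scnn1a rose. It encodes the alpha subunit of the epithelial sodium channel, which reabsorbs sodium in kidney, lung and duct epithelia. Scnn1a read 8.85, 8.75, 8.46, 8.64 and 8.60 with AdNkx6.1, against 6.82, 7.31 and 7.84 as lowest, median and highest with Adβgal and 7.68, 7.93, 7.94, 7.73 and 7.70 untreated. The groups did not overlap. The rise over Adβgal was 2.49-fold (1.32 ± 0.14, limma adjusted p = 5.8e-06), and its second probe set gave 0.94 ± 0.13. Scnn1b and Scnn1g, which encode the other subunits and neighbour each other on chromosome 1, differed by 0.11 ± 0.08 and 0.46 ± 0.26 and did not pass; Scnn1g ran from 4.54 to 6.13 on Adβgal arrays. Of 4 measured duct markers 1 was higher (16.6% of all genes). Their centred mean overlapped between the groups, at -0.26 to 0.13 with AdNkx6.1 and -0.36 to 0.34 with Adβgal. The part of duct cells in the rise of Scnn1a was not tested. Scnm1 differed by 0 ± 0.09, with an interval of -0.19 to 0.19.

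**Figure D3:**
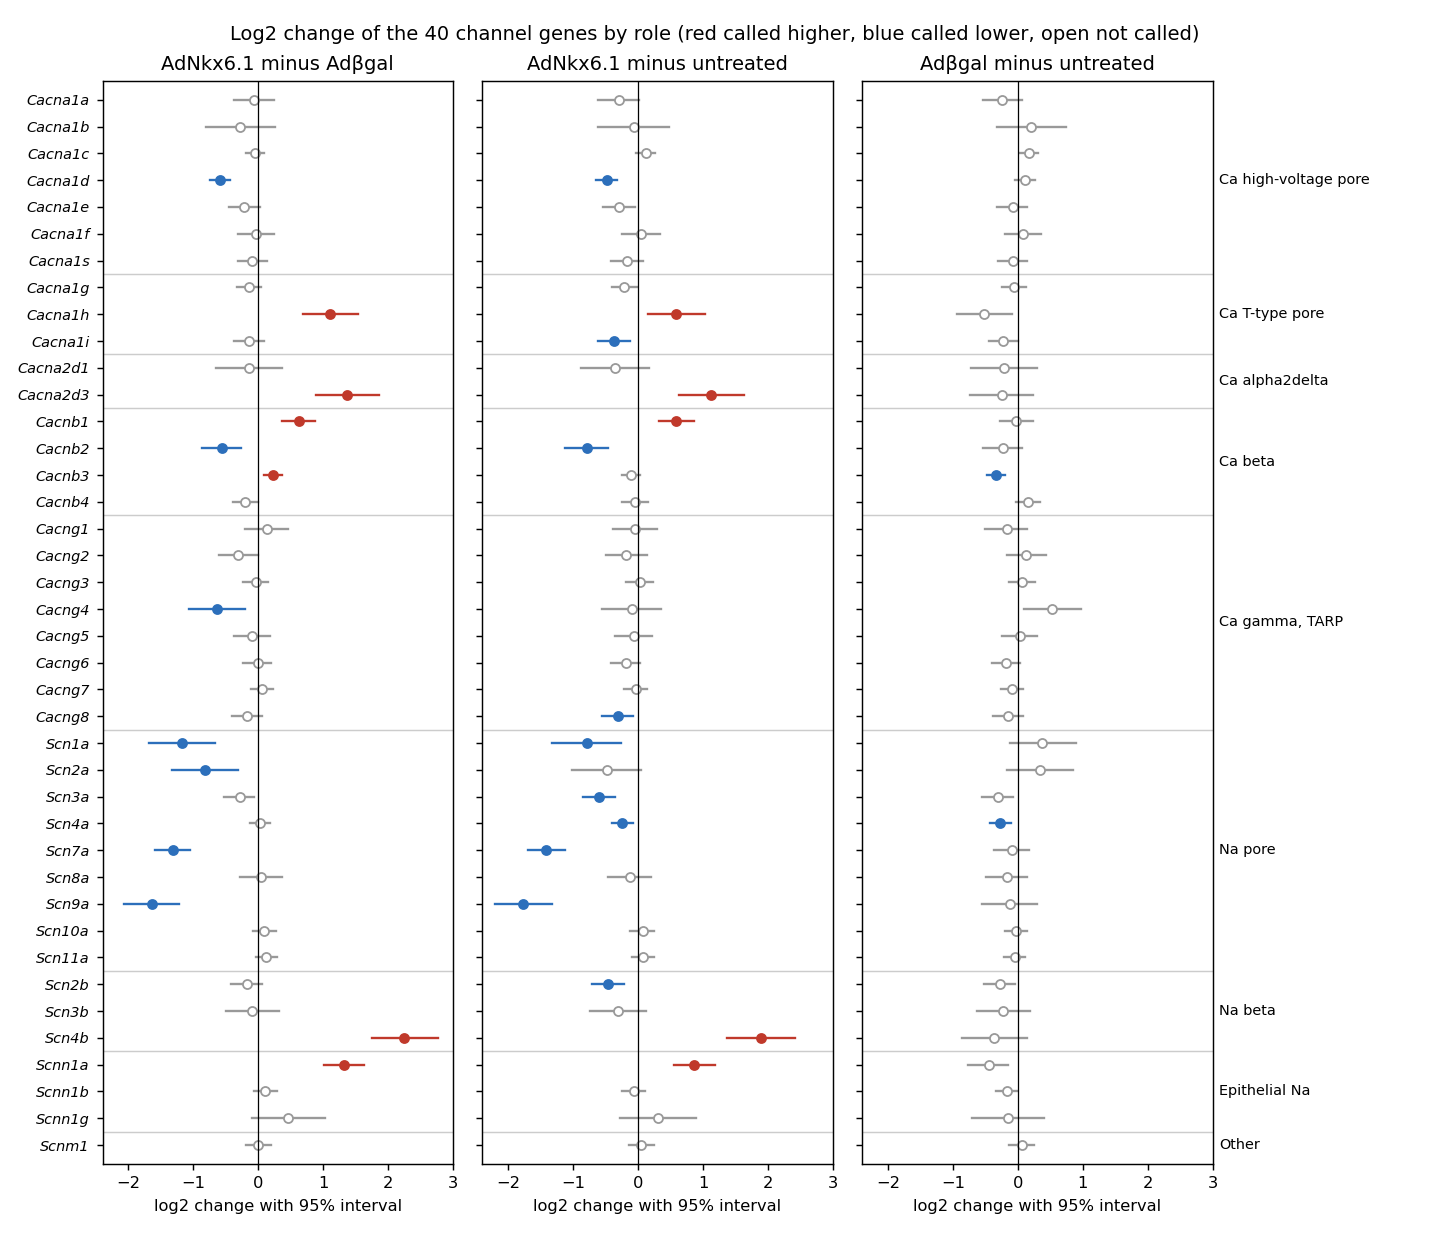
Log2 change (point) with its 95% interval (line) of the 40 channel genes, grouped by role from top to bottom, for AdNkx6.1 minus Adβgal, AdNkx6.1 minus untreated and Adβgal minus untreated. Filled red points are genes higher and filled blue points genes lower at an adjusted p under 0.05; 13, 15 and 2 genes are filled in the panels from left to right.

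Against untreated islets, AdNkx6.1 islets give the combined difference of the virus and its factor; this comparison shares the AdNkx6.1 arrays with the one above, so the values are set side by side and are not separate evidence. Here 15 of 40 genes changed (37.5%, where 30.7% of all genes did), 5 higher (16.9% of all genes) and 10 lower (13.8% of all genes). The groups did not overlap for 16 of the 40 (32.1% of all genes), with AdNkx6.1 above in 5 (17.4% of all genes) and below in 11 (14.7% of all genes). Scn9a differed by -1.77 ± 0.21 (limma adjusted p = 1.1e-05), Scn7a by -1.41 ± 0.13 (1e-06) and Scn1a by -0.79 ± 0.25 (0.025). Scn3a fell 1.52-fold, by -0.6 ± 0.12 (adjusted p = 0.00092). It read 10.54, 10.75, 10.86, 10.77 and 10.60 with AdNkx6.1 and 11.38, 11.33, 11.20, 11.33 and 11.29 untreated, without overlap. Scn2a had -0.48 ± 0.25 and did not pass over all arrays (adjusted p = 0.16); its AdNkx6.1 arrays all lay below the untreated ones, and it passed without Adβgal replicate 4 (0.033), which enters through the shared estimate of the spread.

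The rises over untreated islets were 1.89 ± 0.25 for Scn4b, 1.13 ± 0.24 for Cacna2d3, 0.86 ± 0.15 for Scnn1a, 0.59 ± 0.21 for Cacna1h and 0.59 ± 0.13 for Cacnb1, with limma adjusted p-values of 3e-05 to 0.041. These are the 5 genes whose AdNkx6.1 arrays all exceeded the untreated ones. The call of Cacna1h was lost without any one of replicates 1, 2, 4 and 5 of either group, at adjusted p-values of 0.062 to 0.091. With the mean of all probe sets in place of the highest one, Cacna1h and Cacnb1 did not pass here.

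Lower than untreated were also Cacnb2 (-0.79 ± 0.15, limma adjusted p = 0.00083), Cacna1d (-0.48 ± 0.08, 0.00014), Scn2b (-0.46 ± 0.12, 0.0064) and Cacna1i (-0.37 ± 0.11, 0.019). Scn2b read 10.81, 11.11, 11.17, 11.16 and 11.16 with AdNkx6.1 and 11.45, 11.54, 11.52, 11.55 and 11.65 untreated, without overlap. Averaged over its probe sets, Scn2b did not pass. Scn4a (-0.24 ± 0.08, 0.027) and Cacng8 (-0.31 ± 0.11, 0.044) completed the list, both at low intensities. The calls of Cacna1i, Scn1a, Scn4a and Cacng8 were lost when single arrays were left out, 2, 3, 5 and 10 of the 16 in this order. For Cacna1i these were AdNkx6.1 replicate 4 and untreated replicate 2 (adjusted p up to 0.057). For Scn1a they were AdNkx6.1 replicates 1 and 5 and untreated replicate 1 (up to 0.062), and for Scn4a AdNkx6.1 replicates 3 and 5 and untreated replicates 1, 2 and 3 (up to 0.079). For Cacng8 they were AdNkx6.1 replicates 1, 3, 4 and 5, Adβgal replicates 2 and 3 and untreated replicates 1, 2, 3 and 4 (up to 0.12). Scn3b did not pass over all arrays (-0.31 ± 0.2), passed without Adβgal replicate 5 (0.004), and its 5 AdNkx6.1 arrays lay below all untreated ones.

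Adβgal islets were treated with the control virus and untreated islets were not. Acinar marker means reached 1.85 on Adβgal arrays and at most 0.21 on untreated arrays. An effect of the virus and a difference in cell mixture cannot be told apart here. By limma 2 of 40 genes changed, both lower, where 7.01% of all genes changed and 4.17% were lower, and 0 were higher (2.84% of all genes). At an unadjusted p under 0.05, 2 were higher (9.78% of all genes) and 7 lower (15.1% of all genes). The median change of the 40 was -0.11, beside -0.04 over all genes. The groups did not overlap for 1 gene, Cacnb3, with Adβgal below (6.88% of all genes did not overlap, 2.05% with Adβgal above and 4.83% below). Cacnb3 was 1.26-fold lower with Adβgal (-0.33 ± 0.06, adjusted p = 0.0069), and every Adβgal array, at most 12.4, lay below every untreated array, at least 12.52. Without Adβgal replicates 4, 5 and 6 its change was -0.26 with an adjusted p = 0.054. Scn4a had -0.27 ± 0.07 (adjusted p = 0.04) with overlapping groups, 4.02 to 4.3 with Adβgal and 4.28 to 4.65 untreated. Its call was lost when any one of 10 arrays was left out, at adjusted p-values of 0.05 to 0.097: AdNkx6.1 replicates 1, 2, 4 and 5, Adβgal replicates 3, 4 and 6, and untreated replicates 1, 2 and 3.

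None of the 5 genes highest with AdNkx6.1 over Adβgal passed between Adβgal and untreated over all arrays at the main settings. Cacna1h had -0.52 ± 0.2 there (adjusted p = 0.12), Scnn1a -0.45 ± 0.14 (0.067), Scn4b -0.36 ± 0.24, Cacna2d3 -0.24 ± 0.23 and Cacnb1 -0.03 ± 0.12. Without Adβgal replicate 5, Cacna1h passed as lower with Adβgal (0.039), and Scnn1a passed without Adβgal replicate 2 or 5 (0.016 and 0.04 as the lowest and highest). Scnn1a also passed with the mean of its probe sets (-0.35, 0.028), after another quantile normalization (-0.5, 0.016) and with array weights (-0.41, 0.014), and Cacna1h with array weights (-0.43, 0.023). Scn3a had -0.31 ± 0.11 (0.095) and passed without Adβgal replicate 2 or 3 (0.039 and 0.047). The sodium channel genes Scn9a and Scn7a, lowest with AdNkx6.1, differed by -0.12 ± 0.2 and -0.09 ± 0.13.

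Some markers of other islet endocrine cells, which use voltage-gated sodium channels, were lower with AdNkx6.1 than with Adβgal, and others did not pass. The counts below are to be read beside the 8.48% of all genes that were lower in this comparison. Of 3 measured delta cell markers 2 were lower with AdNkx6.1 than with Adβgal, Rbp4 by -1.14 ± 0.13 and the transcription factor gene Hhex by -0.93 ± 0.12, while the hormone gene Sst differed by -0.15 ± 0.06 (limma adjusted p = 0.083). The centred delta marker mean ran from -0.7 to -0.38 with AdNkx6.1, from 0.09 to 0.34 with Adβgal and from 0.22 to 0.42 untreated. Of 4 measured alpha cell markers 2 were lower, among them Irx1 by -0.83 ± 0.16. Gcg differed by -0.03 ± 0.07 and Ttr by -0.17 ± 0.32, and neither passed. The alpha marker mean ran from -0.58 to -0.17 with AdNkx6.1, from -0.28 to 0.59 with Adβgal and from 0.21 to 0.37 untreated. Both measured markers of PP cells were lower too. Of 6 beta cell markers 1 was lower, and Ins2 differed by 0.01 ± 0.06. The beta marker mean ran from -0.22 to -0.05 with AdNkx6.1, from -0.06 to 0.06 with Adβgal and from 0.05 to 0.21 untreated. The hormone genes read high, with Ins2 at 14.61 to 14.91 over the arrays. Whether their signals are near the upper limit of the arrays was not tested. No marker is at 0 on this scale, and the part of the endocrine cell types in the falls of the channel genes was not tested.

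Genes that work with these channels were counted in 4 lists, to be read beside the 16.6% of all genes that were higher and the 8.48% that were lower with AdNkx6.1 than with Adβgal. Of 12 measured genes listed as partners of sodium channels, 5 were lower with AdNkx6.1 than with Adβgal and 0 higher, with a median of -0.26. Not all are partners of voltage-gated channels alone: Nalcn is a channel of its own, and Sgk1 also raises the epithelial channel. At an unadjusted p under 0.05 limma gave 6 lower and 0 higher, where 13.9% of all genes were lower and 22.4% higher. Nalcn, the voltage-independent sodium leak channel, had the largest change of the 4 lists, at -1.32 ± 0.11 (a 2.5-fold fall, adjusted p = 4.4e-07), with every AdNkx6.1 array below every Adβgal array. Against untreated it differed by -1.53 ± 0.12. Nrcam, an adhesion molecule that gathers sodium channels at nodes of Ranvier, differed from Adβgal by -0.45 ± 0.1 and the membrane anchor gene Ank2 by -0.56 ± 0.15. The kinase gene Sgk1, which in kidney raises the epithelial sodium channel, differed from Adβgal by -0.17 ± 0.05. Against untreated Sgk1 differed by -0.08 ± 0.05 and did not pass (limma adjusted p = 0.31).

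Of 10 measured inhibitors and adaptors of calcium channels, 2 were higher and 1 lower with AdNkx6.1 than with Adβgal, with a median of -0.09. Cbarp, which in mouse lowers calcium channel activity by binding beta subunits, rose by 0.54 ± 0.07 (limma adjusted p = 1.6e-05). The RGK GTPase gene Rem2, whose protein also inhibits these channels through the beta subunit, rose by 0.46 ± 0.09 (0.0014) over Adβgal. Against untreated islets Rem2 differed by 0.1 ± 0.09 and did not pass, and Adβgal was itself lower than untreated (-0.36 ± 0.09, 0.027). Cabp1, a calmodulin-like regulator of L-type channels, was lower by -1.03 ± 0.2 (0.0012) against Adβgal. Against untreated it differed by -0.31 ± 0.21 and did not pass, and Adβgal was itself higher than untreated (0.71 ± 0.2, 0.041).

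**Figure D4:**
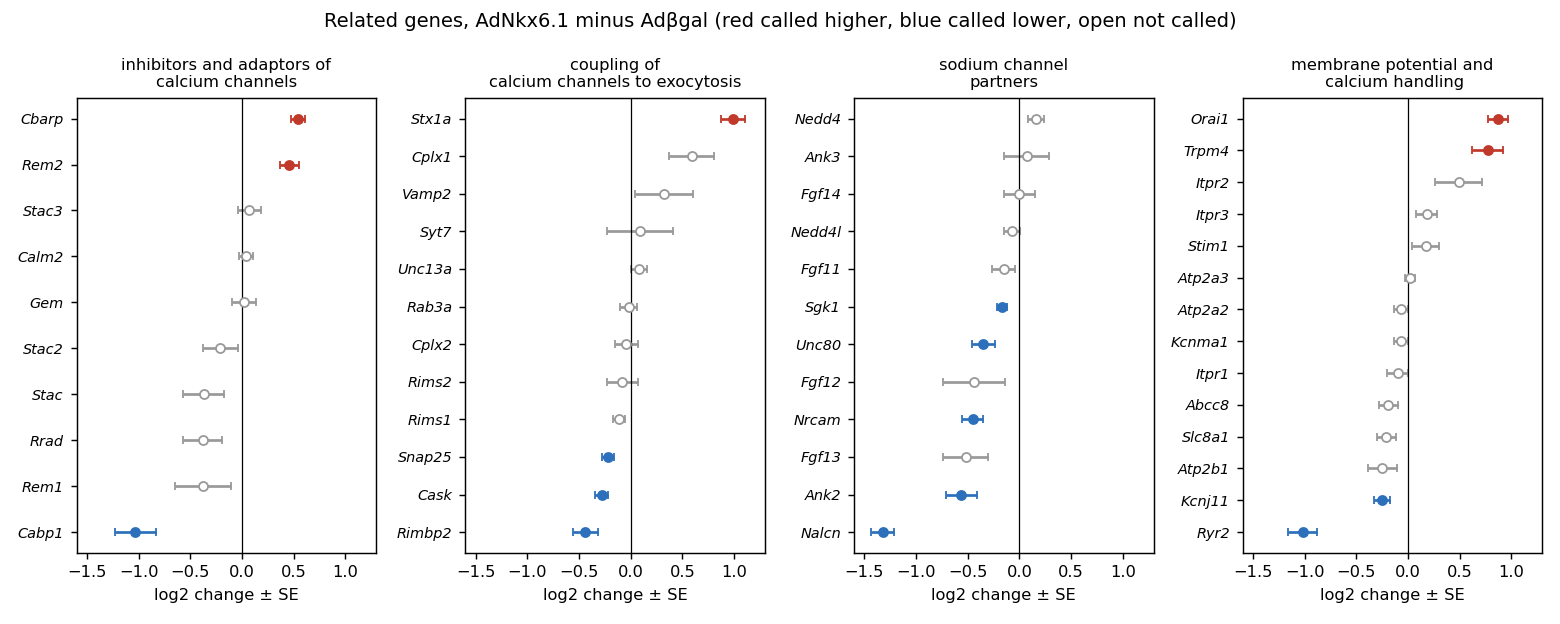
Log2 change ± SE, AdNkx6.1 minus Adβgal, of the measured genes of 4 lists of channel partners, one gene a line. Filled red points are genes higher and filled blue points genes lower at an adjusted p under 0.05; Nalcn at -1.32, Cabp1 at -1.03 and Ryr2 at -1.02 lie farthest to the left.

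Of 12 measured genes that couple calcium channels to exocytosis, 1 was higher and 3 were lower with AdNkx6.1 than with Adβgal, with a median of -0.03. Stx1a, a SNARE protein that also binds calcium channels, rose by 0.99 ± 0.12 (limma adjusted p = 1.3e-05), and its partner SNARE gene Snap25 differed by -0.22 ± 0.06 (0.0092). Rimbp2, which links calcium channels to the release site, differed by -0.44 ± 0.12 (0.011) and the scaffold gene Cask by -0.28 ± 0.06 (0.0027). Against untreated islets Rimbp2 differed by -0.3 ± 0.12 and did not pass (0.071). Of 14 genes of membrane potential and calcium handling, 2 were higher and 2 lower, with a median of -0.07. Orai1, the pore of store-operated calcium entry, rose by 0.87 ± 0.1 (1.1e-05) and Trpm4, a calcium-activated cation channel, by 0.77 ± 0.15 (0.00091). Ryr2, a calcium release channel of the endoplasmic reticulum, was lower by -1.02 ± 0.14 (5.8e-05), and Kcnj11, the pore of the ATP-sensitive potassium channel, by -0.25 ± 0.08 (0.033). Against untreated islets the changes of Orai1, Trpm4 and Ryr2 were 0.65 ± 0.11, 1.01 ± 0.15 and -0.96 ± 0.15.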

How the data were processed

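Gene expression of 16 rat islet arrays was taken from the series' deposited value table. It holds intensity values per probe set on a linear scale, from 6.25 to 35765, which the authors made with RMA (background correction, normalization between arrays and probe summary) per the submitters' processing notes; its version and the return to a linear scale are not given in the sources used here. Log2 was taken without a pseudocount, because the planned test expects a log scale and the values turned out linear. Median intensities ran from 264.8 to 296.2. The protocol states 5 replicates a condition, and all 6 Adβgal arrays were used.

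Of 31099 probe sets, 57 controls were left out and 20826 with 1 gene symbol in the platform annotation gave 14217 genes, each by its probe set of highest mean. Genes were fitted with limma 3.58.1 (R 4.3.3; lmFit, contrasts.fit, eBayes) in 1 model of 3 groups, and adjusted by Benjamini-Hochberg over all genes, 2-sided, threshold 0.05; the fit was tested on simulated data. Other probe sets were fitted over all probe sets with a symbol. Promoters and gene order are RefSeq's (GRCr8); the gene IDs of all 40 genes matched. Array values are given for genes changed at least 1.25-fold between viruses or between Adβgal and untreated, at most 15 a comparison, and partner lists name up to 4 genes of smallest p; the array values of Scn3a and Scn2b were added after they were seen. Alternatives were other probe set summaries, normalization, a level filter, another variance model, array weights, a replicate block, and arrays left out. The genes and lists were chosen with earlier results of these data known. The number of arrays limits the precision.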

Additional observations from a re-analysis of the deposited data

Results flagged for a closer look

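For 6 of 120 pairs of a channel gene and a group, 1 array stood apart from the rest of its group by Dixon's 95% criterion, and chance flags about 1 in 20, that is 6. With AdNkx6.1, Cacna2d3 was highest on replicate 5 at 8.75, where the other arrays lay between 8.31 and 8.41. Scn2b was lowest on AdNkx6.1 replicate 1 at 10.81 (others 11.11 to 11.17), and Cacnb4 on AdNkx6.1 replicate 3 at 3.39 (others 3.7 to 3.8). With Adβgal, Scn3b was lowest on replicate 5 at 10.02 (others 11.22 to 11.56) and Cacng7 highest on replicate 4 at 4.12 (others 3.82 to 3.92). In untreated islets Scn11a was lowest on replicate 2 at 4.66 (others 4.81 to 4.85). Scn3b alone of these 6 genes changed sides of the threshold when that array was left out.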

How the results depend on the processing

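No call of a channel gene turned its direction under any alternative. For AdNkx6.1 against Adβgal, leaving out 1 array at a time gave 5 to 6 higher and 6 to 8 lower channel genes (6 and 7 with all arrays) and 2783 to 3933 genes in all (3560). For AdNkx6.1 against untreated, it gave 4 to 5 higher and 7 to 12 lower (5 and 10), and 3558 to 5069 genes (4360). With the mean of all probe sets 3 channel genes were higher there, without Cacna1h and Cacnb1, and array weights gave 16 lower and 7469 genes in all.

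Adβgal against untreated was the least stable: 1 to 4 channel genes were lower (2 with all arrays) and 509 to 1503 genes changed (997) when 1 array was left out. That count of genes was 1503 without Adβgal replicate 2, 647 without Adβgal replicate 6, and 620, 532, 526 and 509 without untreated replicates 1, 2, 4 and 5. The lower channel genes numbered 1 among genes with a mean of at least 6, 1 with a variance trend, 4 with array weights (1790 genes) and 0 without Adβgal replicates 4, 5 and 6 (552 genes). Those 3 arrays left out gave 5 higher and 9 lower channel genes for AdNkx6.1 against Adβgal: Cacna2d1, Scn2b, Scn3a and Scn3b joined the lower ones. Scn4a lost both its calls after another quantile normalization. The cause of these shifts was not tested.

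Replicate numbers are not said to mark a shared animal or day. Deviations of same-numbered arrays correlated between -0.39 and -0.032 for AdNkx6.1 and Adβgal, and between -0.22 and 0.13 for Adβgal and untreated. For AdNkx6.1 and untreated the correlations lay between -0.19 and 0.25. In this order, 0, 1 and 2 of 5 numbers correlated best with themselves. These values gave no clear sign of pairing, but weak correlations cannot exclude a shared preparation. With the replicate number as a block, 5 higher and 6 lower channel genes and 2855 genes changed for AdNkx6.1 against Adβgal, 0 lower channel genes and 393 genes for Adβgal against untreated, and 4 higher and 10 lower and 3811 genes for AdNkx6.1 against untreated. The block ended the calls of Cacnb3 (0.2, adjusted p = 0.078) and Cacng4 (-0.57, 0.13) for AdNkx6.1 against Adβgal. Signals near the array background limit the folds of the genes of low intensity.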
